A study of Mus musculus with 12 samples.

Results

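The genes described here are 10 genes of FOXO, insulin signalling and gluconeogenesis in the kidney: the transcription factors Foxo1, Foxo3 and Foxo4, the insulin receptor Insr and its adaptor Irs2, the gluconeogenic enzymes Pcx, Pck1, Fbp1 and G6pc1, and the secreted binding protein Igfbp1. They were taken from a list of gene names, drawn up with earlier results of these data known, and each was found by its Ensembl identifier among the 57180 genes of the count files. All 10 passed the filter on low counts and were tested among 17163 genes. Foxo3 and Pck1 were also singled out by the study itself from these same 12 samples, so their values here are not independent evidence of its result.

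Kidney poly(A) RNA was sequenced from 12 male C57BL/6J mice, 60 days old at the start of the experiment, with 1 library per mouse. Cannabidiol (CBD), a non-intoxicating cannabinoid of Cannabis sativa, was injected intraperitoneally once a day for 28 days at 10 mg/kg b.w. (body weight) into 4 mice (10CBD) and at 20 mg/kg b.w. into 4 mice (20CBD), while 4 Control mice received the vehicle, saline with Tween, which all groups shared. Food was freely available in all groups, and the hour of tissue collection is not given in the sources used here. Mouse numbers below are the numbers on the samples' labels and only name the animals.

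Gluconeogenesis makes glucose from lactate, glutamine and other precursors, and in the kidney it takes place in the proximal tubule. Pyruvate carboxylase and phosphoenolpyruvate carboxykinase start the pathway, fructose-1,6-bisphosphatase and glucose-6-phosphatase complete it, and transcription of the genes for several of these enzymes is raised by glucagon or acidosis, by glucocorticoids and by FOXO factors. Insulin acts through its receptor, IRS adaptors and the kinase AKT, which phosphorylates FOXO proteins and keeps them out of the nucleus; this control acts on the protein and is not visible in mRNA counts.

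Short promoter stretches of 4 of the genes are shown first, those whose searched sequence upstream of the start site held a motif marked below. They were chosen by this match, so the presence of the capitals follows from the choice. Each is 30 bases from the RefSeq promoter sequences, read 5′ to 3′ on the gene's own strand and located by exact match in GRCm39. Capitals mark the motif: in Pck1 the letters TGACGT, the core of a cyclic AMP response element, here on the reverse strand, and in the others the letters CAAAACA, known from insulin response sequences, or their reverse complement.
Pck1 chr2:172994763-172994792 (plus strand, motif 91 to 86 bases upstream): ggcctgccccttACGTCAgaggcgagcctc
G6pc1 chr11:101258357-101258386 (plus strand, motif 174 to 168 bases upstream): ttttgtgtgccTGTTTTGctattttacgta
Irs2 chr8:11058948-11058977 (minus strand, motif 37 to 31 bases upstream): gagtcacgtgtTGTTTTGctcttagttcag
Igfbp1 chr11:7147668-7147697 (plus strand, motif 108 to 102 bases upstream): gagctcacaagCAAAACAaacttattttga

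The stretches lie upstream of the RefSeq start sites but inside, or in G6pc1 across the start of, the longer gene spans that GENCODE gives. RefSeq windows of 250 bases upstream were found for 8 of the 10 genes; Foxo4 and Insr had no entry. Both strands were searched. Matches among the 8 genes, which had 9 windows, were counted per gene. The shares of all tested genes were counted per window, over 11492 genes. CAAAACA stood in the windows of 3 of the 8 genes (G6pc1, Irs2 and Igfbp1) and in 3.95% of the 14716 windows of all tested genes with an entry. TGACGT stood in Pck1 only among the 8, and in 8.98% of all windows. The FOXO core GTAAACA, which shares its ending AAACA with the insulin response letters, stood in none of the 8 genes and in 2.47% of all windows. The E-box CACGTG stood in Pcx and Irs2 and in 7.96% of all windows, and in Irs2 it directly precedes the stretch in capitals with 1 base between them. The full glucocorticoid response palindrome, with any 3 bases in its middle, stood in none of the 8 genes and in 0.0136% of all windows. A match describes these letters and is not a measured binding site, and a missing match says only that the letters are not in this window.

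Levels between genes were compared as TMM-normalised CPM, the count of a gene scaled to a common library total, per kilobase of exon (CPM per kb). The 4 enzymes were among the most abundant transcripts of the kidney: in the controls Pck1 had a mean of 864 CPM per kb and ranked 22nd of 17163 genes, followed by Fbp1 with 291, G6pc1 with 278 and Pcx with 117 CPM per kb. The other genes lay far lower, with control means of 14.4 CPM per kb for Foxo4, 13.4 for Igfbp1, 7.61 for Insr, 6.08 for Foxo3, 4.47 for Foxo1 and 4.03 for Irs2. The mice of neighbouring genes in this order overlapped in every group for Foxo4 and Igfbp1, for Insr and Foxo3, and for Foxo1 and Irs2. Fbp1 and G6pc1 overlapped in the controls and at 10 mg, but at 20 mg the lowest Fbp1 value, 250.5 CPM per kb, was above the highest G6pc1 value, 215 CPM per kb. All other neighbours were separate in all 3 groups.

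No gene of the 10 passed the study's threshold, an adjusted p under 0.1, in edgeR's quasi-likelihood test with Benjamini-Hochberg adjustment over all 17163 genes. That threshold was passed by 0.0291% of all genes at 10 mg against control, by 0.303% at 20 mg against control, by 0% at 20 mg against 10 mg and by 0.14% for the mean of both doses against control. At an unadjusted p under 0.05, 5 of the 10 genes stood out at 20 mg against control (Foxo3, Pck1, Irs2 and Igfbp1 higher, G6pc1 lower), against 8.45% of all genes. At 10 mg against control only Pck1 did, against 5.67% of all genes, and at 20 mg against 10 mg Irs2 (higher) and G6pc1 (lower) did, against 6.31% of all genes. For the mean of both doses against control 4 of the 10 did (Foxo3, Pck1 and Igfbp1 higher, G6pc1 lower), against 7.04% of all genes. By groups that did not overlap, 4 of the 10 genes were separate at 20 mg against control (5.3% of all genes), 1 at 10 mg against control (3.19%), 1 at 20 mg against 10 mg (3.1%) and 1 for all 8 treated mice against control (0.862%). The 10 genes were listed with earlier results of these data known, so these counts beside the shares of all genes are not a test of the list. The comparisons at 10 mg and 20 mg share the same 4 control mice, so their values are not independent of each other.

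**Figure D1:**
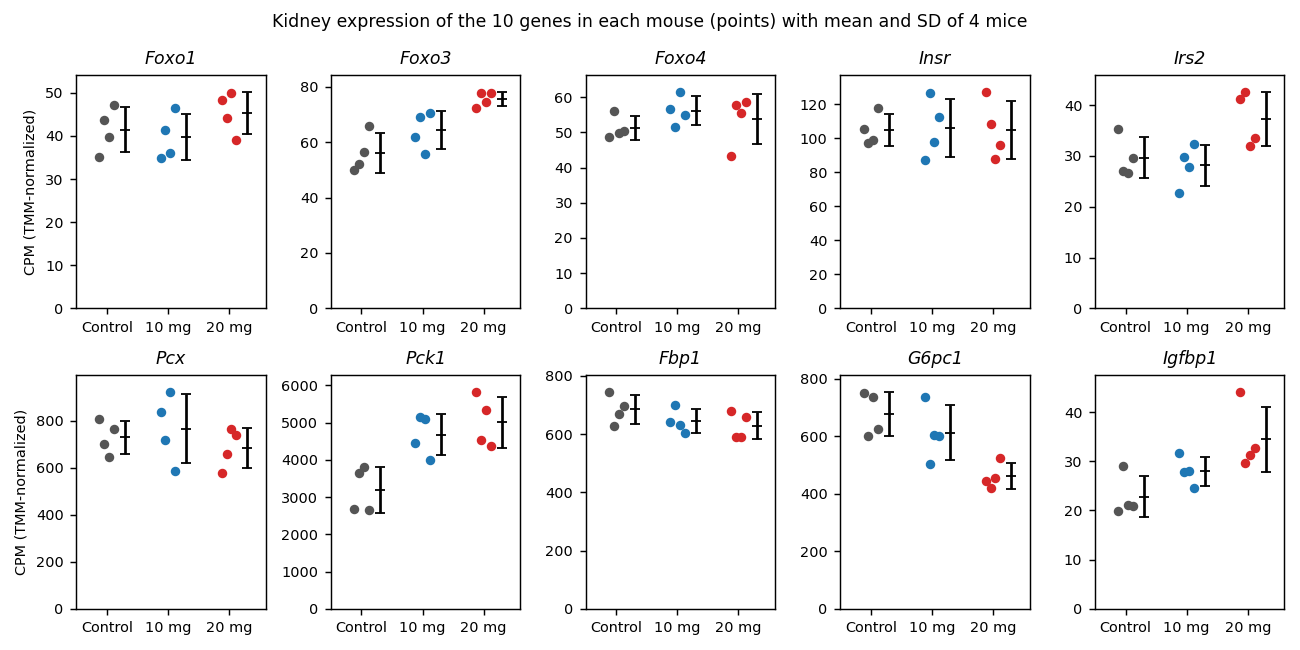
TMM-normalised CPM (vertical axes, from 0) of the 10 genes in each of the 12 mice (points, by group on the horizontal axes), with the mean and SD of 4 mice beside them. All 4 mice at 20 mg lie above all 4 controls in Foxo3, Pck1 and Igfbp1 and below them in G6pc1, while Foxo1, Foxo4, Insr, Irs2, Pcx and Fbp1 overlap between these groups.

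Among the FOXO factors, Foxo3 (ENSMUSG00000048756, chr10:42057837-42154007, minus strand), a factor of stress resistance, cell cycle arrest and autophagy genes, had the largest difference. Its TMM-normalised level was 49.8, 52.2, 56.5 and 66.0 CPM in control mice 1 to 4. At 10 mg it was 61.9, 69.2, 55.8 and 70.5 CPM, and at 20 mg it was 72.4, 77.7, 74.3 and 77.6 CPM. Every mouse at 20 mg lay above every control and above every mouse at 10 mg, whereas the controls and the 10 mg mice overlapped. The means were 56.1 ± 7.13 (SD, n = 4), 64.3 ± 6.82 and 75.5 ± 2.602 CPM. The log2 difference was 0.20 at 10 mg against control (SE 0.117, edgeR adjusted p = 0.887) and 0.43 at 20 mg against control (95% interval 0.18 to 0.68, adjusted p = 0.301). At 20 mg against 10 mg it was 0.23 (−0.02 to 0.48, adjusted p = 0.799). The two-sided exact permutation test gave p = 0.0286 at 20 mg against control and at 20 mg against 10 mg, the smallest that 4 against 4 mice allow, and 0.127 after adjustment over the 40 such tests. In whole tissue, fewer cells of a type and less RNA per cell cannot be told apart, here and for every gene below.

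Foxo1 (ENSMUSG00000044167, chr3:52175757-52260642, plus strand), the factor best known for driving gluconeogenic genes in the liver, gave 35.2, 43.8, 39.7 and 47.1 CPM in the controls, 34.96, 41.4, 36.05 and 46.4 CPM at 10 mg, and 48.3, 44.1, 49.96 and 39.1 CPM at 20 mg. Foxo4 (ENSMUSG00000042903, chrX:100298073-100304479, plus strand), the X-linked member of the family, gave 48.6, 56.05, 49.7 and 50.5 CPM in the controls, 56.7, 51.5, 61.5 and 55.0 CPM at 10 mg, and 43.3, 57.8, 55.5 and 58.6 CPM at 20 mg. All 3 groups of both genes overlapped. At 20 mg against control the log2 difference was 0.13 for Foxo1 (95% interval −0.15 to 0.41) and 0.07 for Foxo4 (−0.18 to 0.32), and at 10 mg against control it was −0.06 (−0.34 to 0.22) and 0.13 (−0.12 to 0.38). Differences as large as that of Foxo3 at 20 mg lie outside the intervals of Foxo1 and Foxo4 at 20 mg, but the difference between the genes was not tested.

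Of the genes of insulin reception, Irs2 differed in level more than Insr. Irs2 (ENSMUSG00000038894, chr8:11034681-11059499, minus strand), an adaptor that couples the insulin receptor to phosphoinositide 3-kinase and a known FOXO target, gave 35.3, 27.1, 26.7 and 29.7 CPM in the controls. It gave 22.7, 29.8, 27.8 and 32.3 CPM at 10 mg, and 41.1, 42.6, 32.0 and 33.5 CPM at 20 mg. Mice 1 and 2 at 20 mg lay above all controls, and mice 3 and 4 lay within their range. The log2 difference was −0.08 at 10 mg against control (95% interval −0.39 to 0.23), 0.33 at 20 mg against control (0.02 to 0.64, edgeR adjusted p = 0.558) and 0.41 at 20 mg against 10 mg (0.10 to 0.72, adjusted p = 0.758). The exact permutation test gave p = 0.0857 at 20 mg against control and 0.0571 at 20 mg against 10 mg.

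Insr (ENSMUSG00000005534, chr8:3172061-3329647, minus strand), the receptor itself, had nearly equal group means: 105 ± 9.43 CPM in the controls, 106 ± 17.1 CPM at 10 mg and 105 ± 17.2 CPM at 20 mg (SD, n = 4). Single mice ran from 97.5 to 118 CPM in the controls, from 87.5 to 126.5 CPM at 10 mg and from 87.8 to 127 CPM at 20 mg. At 20 mg against control the 95% interval of the log2 difference was −0.30 to 0.31, so changes within it are not excluded with 4 mice per group.

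Pck1 (ENSMUSG00000027513, chr2:172994744-173001066, plus strand) encodes the cytosolic phosphoenolpyruvate carboxykinase, the enzyme usually taken as the control point of gluconeogenesis. It gave 2687, 3649, 3815 and 2645 CPM in the controls, 4460, 5156, 5089 and 3985 CPM at 10 mg, and 5816, 4526, 5339 and 4367 CPM at 20 mg. Each of the 8 treated mice lay above each of the 4 controls, and the 2 doses overlapped. The means were 3199 ± 619.5, 4673 ± 555 and 5012 ± 684 CPM (SD, n = 4). The log2 difference was 0.55 at 10 mg (95% interval 0.17 to 0.92, 1.46-fold, edgeR adjusted p = 0.795) and 0.65 at 20 mg (0.27 to 1.02, 1.57-fold, adjusted p = 0.295) against control, and 0.10 between the doses (−0.27 to 0.47). For the mean of both doses it was 0.60 (0.27 to 0.93, adjusted p = 0.306). The exact permutation test gave p = 0.0286 for either dose against control (0.127 adjusted over the 40 tests) and p = 0.00202 for the 8 treated mice against the 4 controls, the smallest that its 495 arrangements allow (0.0808 adjusted).

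G6pc1 (ENSMUSG00000078650, chr11:101258369-101268729, plus strand) encodes the catalytic subunit of glucose-6-phosphatase, the last step, which releases free glucose. Its values were 749, 601, 735 and 623 CPM in the controls, 736, 504, 602.5 and 601.5 CPM at 10 mg, and 442.5, 421, 455 and 524 CPM at 20 mg. All mice at 20 mg lay below all controls, and mouse 2 at 10 mg, at 504 CPM, lay within the range of the 20 mg mice. The means were 677 ± 75.7, 611 ± 95.6 and 461 ± 44.4 CPM (SD, n = 4). The log2 difference was −0.15 at 10 mg against control (95% interval −0.45 to 0.15), −0.56 at 20 mg against control (−0.86 to −0.25, 0.681-fold, edgeR adjusted p = 0.236) and −0.41 at 20 mg against 10 mg (−0.71 to −0.11, adjusted p = 0.758). The exact permutation test gave p = 0.0286 at 20 mg against control and 0.0571 at 20 mg against 10 mg (0.127 and 0.19 adjusted).

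Pck1, near the start of the pathway, and G6pc1, at its end, thus stood on opposite sides of the controls at 20 mg. The ratio of Pck1 to G6pc1 CPM, a description computed within each mouse, was 3.59, 6.07, 5.19 and 4.25 in the controls, 6.06, 10.2, 8.45 and 6.63 at 10 mg, and 13.1, 10.75, 11.7 and 8.34 at 20 mg. Every ratio at 20 mg exceeded every control ratio, while at 10 mg the lowest ratio, 6.06, lay just under the highest control ratio, 6.07. The separation of the ratio at 20 mg follows from the separate Pck1 and G6pc1 values given above and adds no further evidence.

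**Figure D2:**
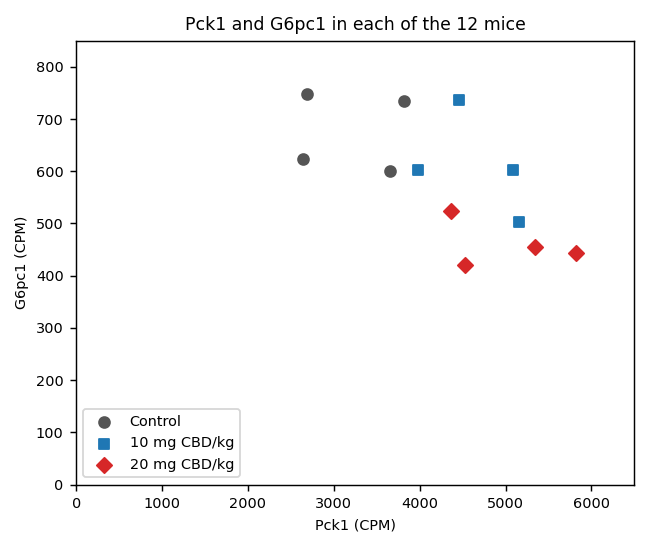
Pck1 (horizontal axis, CPM) against G6pc1 (vertical axis, CPM) in each of the 12 mice, 1 point per mouse and 1 symbol per group, both axes from 0. The 4 mice at 20 mg lie to the right of and below all 4 controls; the 10 mg mice lie to the right of the controls, at G6pc1 values between 504 and 736 CPM.

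Pcx and Fbp1 gave no such separation. Pcx (ENSMUSG00000024892, chr19:4559902-4672189, plus strand), the mitochondrial pyruvate carboxylase, gave 807, 703, 648 and 763 CPM in the controls, 838, 717, 922 and 587 CPM at 10 mg, and 578.5, 659.5, 766 and 740 CPM at 20 mg. Fbp1 (ENSMUSG00000069805, chr13:63012567-63036263, minus strand), fructose-1,6-bisphosphatase, gave 744, 627, 669 and 698 CPM in the controls, 642, 699, 631 and 603 CPM at 10 mg, and 680.5, 589.5, 589 and 659 CPM at 20 mg. The groups of both genes overlapped. The log2 difference at 20 mg against control was −0.09 for Pcx (95% interval −0.42 to 0.24) and −0.12 for Fbp1 (−0.37 to 0.13), and at 10 mg against control it was 0.07 (−0.26 to 0.40) and −0.09 (−0.34 to 0.16). The gene span of Pcx overlaps those of Rce1 and Lrfn4 on the opposite strand, which were counted 3237 and 1779 times over the 12 libraries. Overlap was taken over whole gene spans, not exons. The spans of Foxo1, Foxo3, Irs2 and Insr also overlap other genes, each counted at most 230 times over the 12 libraries. On the same strand these are Gm38034 in Foxo1 (230 counts) and Gm56983 in Foxo3 (45 counts). The strand setting of the counting is not given in the sources used here.

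Igfbp1 (ENSMUSG00000020429, chr11:7147651-7152546, plus strand) encodes an insulin-like growth factor binding protein whose transcription insulin suppresses and FOXO factors raise in the liver. It gave 19.95, 29.0, 21.2 and 21.0 CPM in the controls, 31.6, 27.8, 28.0 and 24.5 CPM at 10 mg, and 44.0, 29.6, 31.3 and 32.7 CPM at 20 mg. Control mouse 2 lay above the other 3 controls and within the 10 mg mice, and all mice at 20 mg lay above it by at least a small margin, 29.6 against 29.0 CPM. The means were 22.8 ± 4.16, 28.0 ± 2.91 and 34.4 ± 6.54 CPM (SD, n = 4), and the smallest count behind them was 386 reads. The log2 difference was 0.30 at 10 mg against control (95% interval −0.03 to 0.63, edgeR adjusted p = 0.871), 0.60 at 20 mg against control (0.26 to 0.93, 1.51-fold, adjusted p = 0.261) and 0.30 at 20 mg against 10 mg (−0.03 to 0.63). The exact permutation test gave p = 0.0286 at 20 mg against control (0.127 adjusted over the 40 tests) and 0.114 at 10 mg against control.

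**Figure D3:**
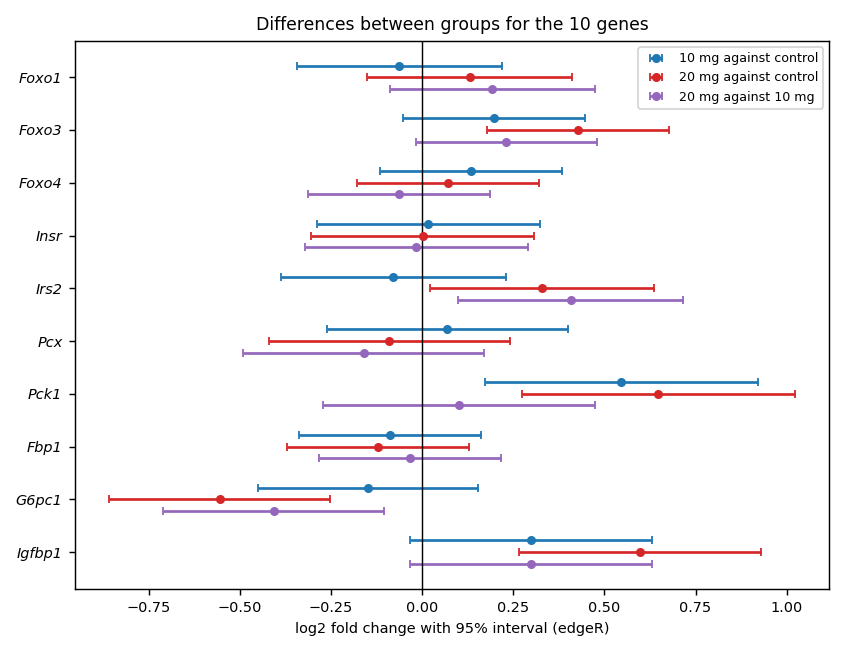
Log2 fold changes with 95% intervals from edgeR (horizontal axis) for the 10 genes (vertical axis) at 10 mg against control, 20 mg against control and 20 mg against 10 mg. The red intervals, 20 mg against control, exclude 0 for Foxo3 (0.43), Irs2 (0.33), Pck1 (0.65), G6pc1 (−0.56) and Igfbp1 (0.60); no adjusted p was under 0.1.

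Whether these genes passed the threshold depended on the fit, and the study itself used DESeq2. With DESeq2 in place of edgeR, 4 genes passed at 20 mg against control, at adjusted p = 0.0767 for Foxo3, 0.0157 for Pck1, 0.0155 for G6pc1 and 0.0762 for Igfbp1, with log2 differences of 0.42, 0.64, −0.56 and 0.59, while 1.07% of all genes with an adjusted p passed, against 0.303% in edgeR. In DESeq2 Pck1 also passed for the mean of both doses (adjusted p = 0.00832), as did 0.727% of all genes. The same 4 genes passed at 20 mg in edgeR with each library's mitochondrial share as a covariate (adjusted p = 0.0434, 0.0279, 0.0297 and 0.0271), a fit in which 8.08% of all genes passed, and Pck1 passed there for the mean of both doses (adjusted p = 0.0448, 1.61% of all genes). Without the filter on low counts G6pc1 and Igfbp1 passed at 20 mg (edgeR adjusted p = 0.0879 and 0.0437), with 1.04% of all genes. In none of the 12 edgeR fits that left out a library did a gene of the 10 pass, and the log2 differences at 20 mg against control then ran from 0.38 to 0.51 for Foxo3, from 0.57 to 0.74 for Pck1, from −0.62 to −0.50 for G6pc1 and from 0.45 to 0.73 for Igfbp1.

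The libraries held 15417867 to 23532088 gene counts, with a mitochondrial share of 3.53% to 23.4%. The share was under 10% in 4 libraries (Control mouse 2, 10CBD mice 1 and 3, and 20CBD mouse 3), and Control mouse 2 was also the control with the highest Igfbp1. Within the 8 libraries with a share of at least 10%, an alternative added after seeing the data, the differences at 20 mg against control were as large or nearly so: 0.40 for Foxo3 (edgeR adjusted p = 0.214), 0.69 for Pck1 (0.147), −0.60 for G6pc1 (0.0719) and 0.78 for Igfbp1 (0.0287); 0.611% of all genes passed there. Of 10 proximal tubule markers, the cell type that holds the gluconeogenic enzymes, 1 fell past the threshold at 20 mg (the glucose transporter Slc5a2, log2 difference −0.61, edgeR adjusted p = 0.082), 9 of 10 had a log2 difference below 0, and none was at 0. Their summed level was 9550 to 11390 CPM in the controls, 8427 to 10760 CPM at 10 mg and 7922 to 9379 CPM at 20 mg, where it lay below all controls together with G6pc1; Pck1 lay above them in the same mice. With the markers' mean log2 CPM as a covariate, which itself moves with dose, the differences at 20 mg were 0.54 for Foxo3, 0.63 for Pck1, −0.53 for G6pc1 and 0.51 for Igfbp1, each with an edgeR adjusted p of 0.997, and the markers' part in the results was not tested further. Adipocytes also express Pck1. The sum of 5 adipocyte markers was 5.24 to 87.9 CPM in the controls, 0.452 to 30.7 CPM at 10 mg and 0.12 to 16.3 CPM at 20 mg. The medians of this sum were 58.0, 17.4 and 3.2 CPM. The liver also expresses Igfbp1, Pck1 and G6pc1, and the sum of 6 hepatocyte markers was 33.8 to 61.7, 33.8 to 51.4 and 40.1 to 74.8 CPM. No group had an adipocyte or hepatocyte marker at 0 in all its mice, and the part of either cell type in the results was not tested. Of 4 adrenal cortex markers, which summed to at most 0.546 CPM in any library, Cyp11b2 was at 0 in all controls, Cyp11b1, Cyp11b2 and Cyp21a1 at 10 mg, and Cyp21a1 at 20 mg.

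Around the 10 genes, 8 gene lists were counted in the same edgeR fit, each against the median log2 difference of all tested genes, which was 0.01 at either dose against control; their counts at an unadjusted p under 0.05 at 20 mg are to be read against the 8.45% of all genes at that threshold. At 10 mg against control and at 20 mg against 10 mg no gene of these lists passed an adjusted p under 0.1. At 20 mg against control 1 gene did, Ddit4. The lists share genes with each other and with the 10.

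Of 41 insulin and PI3K-AKT signalling genes, 39 were tested and none passed; 3 were higher and 2 lower at an unadjusted p under 0.05 at 20 mg, and the median log2 difference was −0.04. The 2 lower ones were Igf1r, the receptor for insulin-like growth factor, with means of 258 ± 16.4 CPM in the controls and 219.5 ± 13 CPM at 20 mg (log2 difference −0.23, adjusted p = 0.566), and Pik3cb, a catalytic subunit of phosphoinositide 3-kinase (−0.27, adjusted p = 0.57). The higher ones were Foxo3, Irs2 and Eif4ebp1, the translation repressor that mTOR inactivates (0.32, adjusted p = 0.578). Of 23 FOXO regulators (AKT and SGK kinases, 14-3-3 proteins, acetylases and others) none had an unadjusted p under 0.05 at any dose, and the median at 20 mg was −0.04.

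Of 24 gluconeogenesis genes, 23 were tested and none passed at 20 mg. Besides Pck1 and G6pc1, the genes with an unadjusted p under 0.05 were the reversible enzymes Eno1 (enolase, −0.33, adjusted p = 0.475) and Pgk1 (phosphoglycerate kinase, −0.38, adjusted p = 0.53). Eno1 gave 503, 431, 380 and 460 CPM in the controls and 356, 321, 355 and 376 CPM at 20 mg, so that all 20 mg mice lay below all controls. The median of the list was −0.12. The 11 tested of 13 opposing glycolytic enzymes, hexokinases, phosphofructokinases, their regulators and pyruvate kinases, had a median of −0.20 at 20 mg with 9 of 11 below 0, and none had an unadjusted p under 0.05. The largest of these differences, that of Hk2 (−0.71, 95% interval −1.57 to 0.16), rests on 6 to 31 reads per library.

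Of 27 FOXO target genes, all tested, none passed at 20 mg; 6 were higher and 2 lower at an unadjusted p under 0.05, 14 had a log2 difference above 0 and 13 below, and the median was 0.00. Besides Igfbp1, Pck1 and Irs2, the higher ones included Map1lc3b, an autophagosome protein (0.25, adjusted p = 0.522), and Sesn1, a stress-induced inhibitor of mTORC1 (0.29, adjusted p = 0.533). Map1lc3b gave 139, 119, 124 and 115 CPM in the controls and 151.5, 140.5, 154 and 147 CPM at 20 mg, with no overlap. Besides G6pc1, the lower one was Pdk4, the kinase that shuts pyruvate out of the citric acid cycle in fasting. Pdk4 gave 240, 101, 121 and 76.8 CPM in the controls, 41.85, 102, 51.4 and 76.2 CPM at 10 mg, and 60.85, 112, 58.2 and 45.85 CPM at 20 mg. Its log2 difference was −0.99 at 10 mg (adjusted p = 0.812) and −0.96 at 20 mg (95% interval −1.73 to −0.20, adjusted p = 0.474); control mouse 1 lay far above the other controls, and the groups overlapped. Of the 9 tested of 10 fasting-responsive genes, 1 was lower (Pdk4) and 1 higher (Lpin1, a phosphatidate phosphatase and coactivator, 0.35, adjusted p = 0.533) at an unadjusted p under 0.05, with a median of 0.16.

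Of 20 known regulators of Pck1 and G6pc1 none passed at 20 mg; 3 were higher and 1 lower at an unadjusted p under 0.05, and the median was −0.07. The higher ones were Foxo3, Klf15, a factor that raises amino acid use for gluconeogenesis (0.46, adjusted p = 0.271), and Cebpb (1.04, 95% interval 0.11 to 1.98, adjusted p = 0.533). Klf15 gave 68.5, 67.4, 81.25 and 73.4 CPM in the controls, 93.6, 80.8, 86.15 and 77.7 CPM at 10 mg, and 88.85, 87.2, 111 and 113 CPM at 20 mg, where all mice lay above all controls. Cebpb ran from 5.09 to 22.6 CPM at 20 mg and overlapped the controls. The lower one was Nr3c1, the glucocorticoid receptor (−0.34, adjusted p = 0.481). Ppargc1a, the coactivator best known for switching on gluconeogenic genes, had a log2 difference of −0.04 and Hnf4a one of −0.11.

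Of 12 glucocorticoid-induced genes, Pck1 among them, 11 were tested at 20 mg: 1 rose past the threshold, none fell, 7 were higher at an unadjusted p under 0.05, and the median was 0.53. The study drew attention to glucocorticoid genes, Ddit4, Fkbp5 and Pck1 included, from these same samples, so the direction of this list is not independent evidence. Ddit4, an mTORC1 inhibitor induced by stress and glucocorticoids, rose from 16.1, 10.97, 13.55 and 8.16 CPM in the controls to 24.7, 27.4, 27.3 and 25.1 CPM at 20 mg, with 10.96, 12.4, 14 and 22.95 CPM at 10 mg. Its log2 difference was 1.09 at 20 mg (95% interval 0.61 to 1.58, edgeR adjusted p = 0.0849). Of the 12 fits that left out a library, it passed in the 3 without 10CBD mouse 1, 2 or 4 (adjusted p = 0.0713, 0.0797 and 0.0374) and not in the other 9. Fkbp5, a co-chaperone of the glucocorticoid receptor, gave 61.9, 77.7, 54.2 and 44.3 CPM in the controls and 75.7, 96.1, 105 and 114.5 CPM at 20 mg (0.72, adjusted p = 0.239), and Tsc22d3, the glucocorticoid-induced leucine zipper, gave 45.02, 35.9, 50.7 and 33.1 against 50.8, 57.05, 104 and 81.4 CPM (0.83, adjusted p = 0.27). Sgk1, which phosphorylates FOXO3, was the only tested gene of the list with a log2 difference below 0 (−0.28, adjusted p = 0.789).

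**Figure D4:**
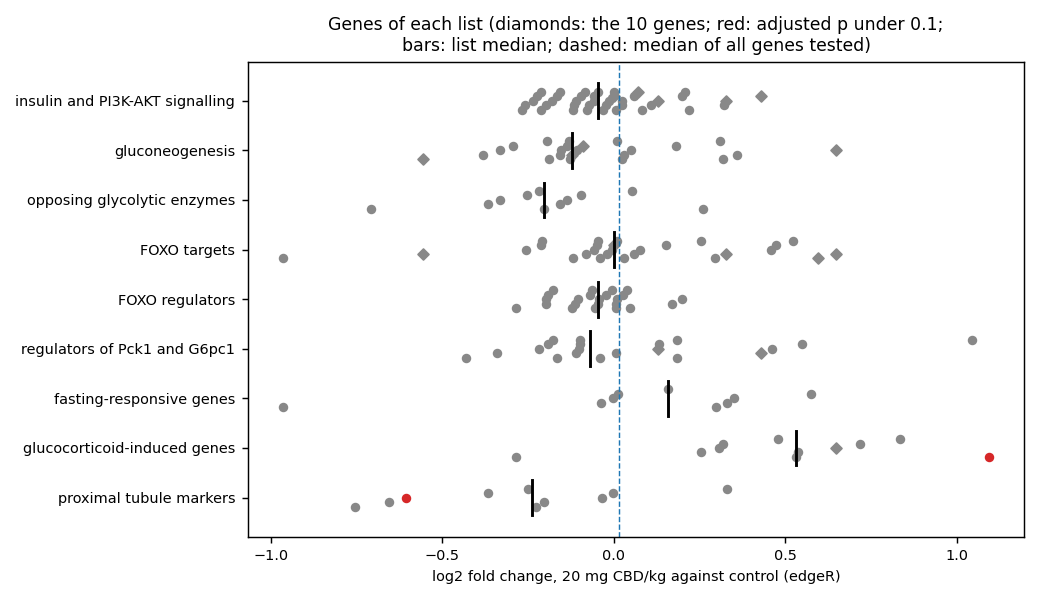
Log2 fold changes at 20 mg against control (horizontal axis, edgeR) of the tested genes of 8 lists and of the proximal tubule markers (vertical axis); diamonds are genes of the 10, red points passed an adjusted p under 0.1, black bars are list medians and the dashed line is the median of all tested genes. Only Ddit4 (1.09) and Slc5a2 (−0.61) are red, and the list medians run from −0.24 for the proximal tubule markers to 0.53 for the glucocorticoid-induced genes.

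The genes whose level over the 12 libraries was most like that of Foxo3 or Pck1 were ranked by Pearson's r of log2 CPM among all tested genes, as a description with no test; the points share the groups and the libraries. For Foxo3 the highest were Lyrm1 (r = 0.926), Plcb2 (0.926) and Gm58631 (0.909, on 10 to 24 reads per library), and the lowest were Slc16a1, a lactate and pyruvate transporter (−0.906), Map3k5 (−0.895) and Gpr155 (−0.884). For Pck1 the highest were Dtwd2 (0.869), the circadian repressor Nr1d2 (0.867) and Gm41469 (0.851), and the lowest were the circadian factor Nfil3 (−0.913), Pla2g6 (−0.883) and Kat2a (−0.875). Nfil3 gave 10.4, 8.3, 7.56 and 10.4 CPM in the controls, 5.97, 4.09, 3.79 and 4.75 CPM at 10 mg, and 3.05, 4.07, 4.2 and 3.56 CPM at 20 mg, so all treated mice lay below all controls where Pck1 lay above them. Because Nfil3 was picked by its correlation with Pck1, this mirrored order is tied to the choice and is no independent result. Of all genes, 0.862% separated all treated mice from the controls. The study also named Nfil3 and Nr1d2 from these same samples. Nfil3 fell by 1.30 on the log2 scale at 20 mg (edgeR adjusted p = 0.0144), and Nr1d2 rose by 0.80 (adjusted p = 0.0357).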

How the data were processed

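The deposited files hold raw read counts per Ensembl gene, 1 file per mouse, which the authors made from Lexogen CORALL poly(A) libraries with FastQC 0.11.9, Flexbar, STAR 2.7.5c on GRCm39 and HTSeq 1.99.2, per the labels and the study's methods. The annotation release, the strand setting and the use of molecular identifiers are not given in the sources used here. The 5 summary lines of HTSeq were left out. Symbols came from GENCODE vM39 (99.02% of identifiers matched). Counts were filtered (filterByExpr), TMM-normalised and tested with edgeR 4.0.16 (R 4.3.3) by the quasi-likelihood test over all 12 libraries and 3 groups; an adjusted p under 0.1, the study's threshold, was called. The study itself used DESeq2, tried here (1.42.0) as an alternative. Two-sided exact permutation tests of mean log2 CPM (prior count 2) enumerated all arrangements of the mice, with SciPy 1.17.1 for their Benjamini-Hochberg adjustment. The genes and lists were chosen with earlier results of these data known. List genes were named where called or among the 3 of their list (the 10 genes aside) with the smallest p at 20 mg; genes most like Foxo3 and Pck1 were the 3 with the highest and the 3 with the lowest r. Slc5a2, Ppargc1a and Hnf4a were named after their values were seen. Alternatives were other normalisations, filters, tools and covariates, the replicate block, and leaving out each library. The smallest count of any of the 10 genes in a library was 386 reads; some list genes rest on far fewer. P-values weigh the difference between groups against the spread between mice.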

Additional observations from a re-analysis of the deposited data

Results flagged for a closer look

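In 135 groups of 4 mice tested by Dixon's criterion, 3 single values stood apart from their group, where chance alone gives about 1 in 20 groups. Igfbp1 was at 29.0 CPM in Control mouse 2, against 19.95 to 21.2 CPM in the other 3 controls. Sesn1 was at 14.7 CPM in 20CBD mouse 1, against 15.75 to 15.95 CPM in the other mice at 20 mg. Akt2 was at 46.6 CPM in 10CBD mouse 4, against 55.3 to 56.15 CPM in the other mice at 10 mg.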

How the results depend on the processing

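Over the alternatives planned or added, the log2 differences of the 10 genes kept their direction and their side of the threshold in 472 fitted values, passed the threshold in 14 more (those of Foxo3, Pck1, G6pc1 and Igfbp1 given above) and changed sign in 24. The 472 include the values at an adjusted p under 0.05, which repeat the main fit at a stricter threshold and could not change. The 80 alternative permutation values kept theirs. The counts of called genes moved most. With edgeR as reported they were 5 at 10 mg, 52 at 20 mg, 0 between the doses and 24 for the mean of both doses; at an unadjusted p under 0.05 the comparison between the doses gave 1083. In the same order DESeq2 gave 33, 170, 13 and 116, no filter on low counts 331, 416, 256 and 393, and the mitochondrial covariate 15, 1386, 62 and 276. The proximal tubule covariate gave 3, 2 and 7 at 10 mg, at 20 mg and for the mean, the 8 libraries gave 26, 107 and 67, and an adjusted p under 0.05 gave 3, 23 and 13. The replicate block gave 27 at 20 mg. Of the 10 genes, DESeq2 called 4, no filter 2, the mitochondrial covariate 4 and the 8 libraries 2 at 20 mg, and DESeq2 and the mitochondrial covariate each called 1 for the mean. Of the list genes other than the 10, 1 called at 20 mg became 4 with DESeq2, 7 without the filter, 18 with the mitochondrial covariate, 2 in the 8 libraries and 0 with the replicate block, the proximal tubule covariate or an adjusted p under 0.05. For the mean, where none was called, DESeq2 gave 1, no filter 8, the mitochondrial covariate 5 and the 8 libraries 1; at 10 mg no filter gave 4, and between the doses no filter gave 4 and the mitochondrial covariate 1. The cause of these shifts was not tested. Leaving out 1 library, the counts of called genes ran from 2 to 8 at 10 mg, from 14 to 54 at 20 mg and from 8 to 35 for the mean, and of these list genes from 0 to 1 at 20 mg.

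The sign changes were in differences whose intervals include 0, and their cause was not tested. Insr at 20 mg became −0.00365 with RLE normalization, −0.00828 with DESeq2, −0.00883 with limma-voom, −0.0119 without the filter, −0.000623 in only the groups compared, −0.00326 with the replicate block and −0.094 with the mitochondrial covariate. For the mean of both doses Insr became −0.000228 with limma-voom, −0.01035 without the filter and −0.0114 with the mitochondrial covariate, at 10 mg it became −0.00879 without the filter, and between the doses 0.115 with the proximal tubule covariate. The mitochondrial covariate turned Pcx at 10 mg to −0.00633 and Foxo4 between the doses to 0.00282. The proximal tubule covariate turned Fbp1 to 0.0396 and Pcx to 0.0503 at 20 mg, Fbp1 to 0.0905 between the doses, and Foxo1 to −0.0333 and Pcx to 0.0739 for the mean. In the 8 libraries Foxo1 became 0.11, Pcx −0.185 and Irs2 0.0183 at 10 mg, and Foxo4 0.00511 and Pcx 0.0213 between the doses. Leaving out 1 library turned 33 further values: Fbp1 (−0.072 to 0.0105), Foxo4 (−0.106 to 0.0284) and Insr (−0.122 to 0.0804) between the doses; Foxo1 (−0.149 to 0.00201), Insr (−0.0807 to 0.0977), Irs2 (−0.154 to 0.0178) and Pcx (−0.0332 to 0.175) at 10 mg; Insr (−0.107 to 0.0764) at 20 mg; and Foxo1 (−0.0343 to 0.0988), Insr (−0.0463 to 0.0689) and Pcx (−0.0658 to 0.0443) for the mean.

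No clear pairing of the mice by replicate number was seen. Deviations of same-numbered mice correlated at r = −0.33 to 0.317 over 12 pairs, 4 of them above 0.1. In this measure 2 libraries were closest to their own number. These values cannot exclude a pairing. The replicate block is given as a value only, and it called no gene of the 10. Exact permutation tests of 4 against 4 mice cannot go below p = 0.0286.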
